A study of Homo sapiens with 9 samples.

Results

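Among 37351 genes counted in LNCaP cells exposed to NRG1, 7 genes in 3 neighbourhoods of chromosome 1 were examined: RHD, TMEM50A and RHCE, then LPGAT1 and INTS7, and lastly SIPA1L2 and NTPCR. They were selected by name because, in these same libraries, each had a higher level after NRG1 and stood next to another such gene, so their changes with time are given below as a description and without a test. Every one of the 7 was among the 19250 genes with enough reads to be fitted. RHD entered the fit only through the NRG1-treated groups, where its level was high enough. In relative terms RHD and SIPA1L2 differed most from 0 h, SIPA1L2 on far more reads, whereas INTS7 and NTPCR lay close to the 1.5-fold threshold.

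The RH genes encode multipass membrane proteins of red blood cells that carry the antigens of the Rh blood group, the D antigen by RHD and the C and E series by RHCE, and that assemble with the ammonium channel protein RHAG. Both arose by duplication and are highly alike in sequence, and TMEM50A, a small membrane protein gene of poorly known function, stands between them. LPGAT1 encodes an acyltransferase of the endoplasmic reticulum that remodels phospholipids, and INTS7 a subunit of Integrator, the complex that cleaves the 3′ ends of small nuclear RNAs and ends transcription early at many genes. SIPA1L2 belongs to the SIPA1 family of GTPase-activating proteins, which switch off the small GTPase RAP, and NTPCR encodes a nucleoside triphosphatase. NRG1 is a ligand of the receptor HER3, which signals with HER2.

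LNCaP is a line from a metastasis of human prostate carcinoma. Its cells were kept without serum and calcium before recombinant NRG1, labelled at 15 ng/mL, and total RNA was taken at 0, 12 and 24 h, with 3 libraries labelled as biological replicates at each time. The labels call the 0 h libraries NRG1-treated as well, and they serve as the baseline. No library held cells kept for 12 or 24 h without NRG1, so NRG1 and time in the starvation medium cannot be told apart, and whether the replicates came from separate cultures beyond their wells was not stated, so the p-values measure the spread between these libraries.

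Libraries held 47016302 to 60985825 counts, and scaling factors ran from 0.993 to 1.02. Replicates of a group correlated at 0.991 to 0.993 across genes, and no pair of them was alike within sampling noise. The 9 listed prostate luminal markers were all present, with summed levels of 4379 to 4822 CPM, that is counts scaled to 1e6 per library. Erythroid markers bear on the RH genes. Of 14 such markers 9 were in the table, and nearly all their 16.2 to 19.8 CPM came from EPOR, the erythropoietin receptor, at 16.8 to 18.7 CPM in the group means. The summed level was 17.2 to 17.9 CPM at 0 h and 16.2 to 17.9 CPM at 12 h, and 19.0 to 19.8 CPM at 24 h, above both earlier times, and its part in the values of the RH genes was not tested. The globin genes HBA1 and HBB had 4 and 3 reads in all 9 libraries together. Of the 3 erythroid markers that could be fitted 0 passed by edgeR at 12 h or 24 h (0 and 1 at an unadjusted p under 0.05). Between 12 h and 24 h 0 passed either, but 2 were higher at an unadjusted p under 0.05, EPOR and GATA1. GATA1, a marker of few reads, had 0.149, 0.0588 and 0.243 CPM in the group means. Its log2 difference between 12 h and 24 h was 2.03 ± 0.68 (adjusted p = 0.0708, edgeR). Summed stromal markers ran from 26.2 to 30.5 CPM and summed immune markers from 0.096 to 0.435 CPM, with overlapping ranges in the 3 groups. Of 5 fitted stromal markers 1 passed at each time, COL3A1, a fibrillar collagen, which rose by 0.98 and 1.32 on the log2 scale (adjusted p = 0.009 and 0.00032, edgeR). LUM had an adjusted p of 0.0479 at 24 h (edgeR), and COL1A1, the most abundant, was at -0.14 and -0.11 and did not pass. The part of these markers in the members' values was not tested.

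The starts of the RH genes are shown to compare the copies where their windows were most alike. The RefSeq promoter windows of GRCh38.p14 run from 250 bases before to 50 bases after an annotated start of a gene. All windows of RHD and RHCE were compared, and the pair with the fewest differences was taken. The likeness given is therefore the highest found. The RHCE window has its start at 25420825, inside the gene, whose annotated 5′ end is at 25430192. In the pair taken, RHD (chr1:25272259-25272558, plus strand) and RHCE (chr1:25420776-25421075, minus strand) had the same base at 298 of 300 positions (99.3%). The differences were G146C and A158G, with the RHD base first and positions counted from 1 at the 5′ end of the window. Capitals mark these bases.
RHD: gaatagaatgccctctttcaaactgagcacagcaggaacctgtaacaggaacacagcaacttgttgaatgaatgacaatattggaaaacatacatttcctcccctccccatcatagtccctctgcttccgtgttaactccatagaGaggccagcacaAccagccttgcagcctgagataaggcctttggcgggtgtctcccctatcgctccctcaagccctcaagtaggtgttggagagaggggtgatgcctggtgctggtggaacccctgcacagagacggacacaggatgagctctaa
RHCE: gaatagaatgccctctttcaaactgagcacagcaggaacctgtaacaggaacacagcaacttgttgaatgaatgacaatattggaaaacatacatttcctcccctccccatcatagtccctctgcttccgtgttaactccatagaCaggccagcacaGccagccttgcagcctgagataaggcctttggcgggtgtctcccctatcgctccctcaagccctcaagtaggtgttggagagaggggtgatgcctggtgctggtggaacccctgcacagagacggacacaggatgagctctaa
TMEM50A, between them (chr1:25338084-25338383, plus strand), and SIPA1L2 (chr1:232630084-232630383, minus strand), which had the highest fold at 24 h among the abundant members, are printed for contrast and carry no capitals.
TMEM50A: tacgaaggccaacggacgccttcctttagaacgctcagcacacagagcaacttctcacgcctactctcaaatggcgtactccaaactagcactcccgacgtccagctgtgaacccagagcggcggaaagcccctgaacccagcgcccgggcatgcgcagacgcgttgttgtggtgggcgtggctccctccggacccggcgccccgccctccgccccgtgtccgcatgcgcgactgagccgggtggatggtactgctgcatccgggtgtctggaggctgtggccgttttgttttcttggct
SIPA1L2: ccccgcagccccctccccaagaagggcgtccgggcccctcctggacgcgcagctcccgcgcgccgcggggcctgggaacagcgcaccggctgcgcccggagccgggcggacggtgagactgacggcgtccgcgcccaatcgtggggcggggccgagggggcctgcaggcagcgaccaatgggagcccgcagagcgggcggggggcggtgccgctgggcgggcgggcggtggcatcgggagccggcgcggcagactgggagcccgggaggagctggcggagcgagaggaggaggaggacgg
The windows taken for the RH pair stood apart from those of the other members in base composition. GC made up 51.7% of the RHD window and 52% of the RHCE window. In the other members it ran from 61% in NTPCR to 79.7% in SIPA1L2, against a median of 58.7% over 35116 windows. The ratio of observed to expected CpG was 0.201 in RHD and 0.198 in RHCE and ran from 0.859 in LPGAT1 to 1.03 in INTS7 in the others, with a median of 0.579 over all windows. Exact strings of letters were searched on both strands: CGGAAGT for ETS factors, TGANTCA for AP-1, GTAAACA for forkhead factors and GCGTGGG for EGR. These are distinct strings, and 0 of the 7 members' windows held any. They occurred in 6.83%, 7.71%, 3.42% and 6.98% of all windows. Near matches were not counted, so the search does not show that sites for these factors are absent. The RHD, RHCE and NTPCR windows hold gcttccg, for instance. On the other strand it reads CGGAAGC, which differs from the ETS string in the last base.

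RHD (ENSG00000187010.21, chr1:25272393-25330445 in GRCh38, plus strand) was a gene of very few reads. It had 12, 7 and 0 reads at 0 h, which is 0.194, 0.121 and 0 CPM. At 12 h it had 0.259, 0.303 and 0.475 CPM, and at 24 h 0.682, 0.662 and 0.422 CPM. No library after NRG1 was as low as any at 0 h, but 12 h and 24 h overlapped. Mean levels were 0.105 ± 0.0978, 0.346 ± 0.114 and 0.589 ± 0.144 CPM (SD, n = 3). Pooled over the libraries of a group, 19, 53 and 90 reads gave exact 95% Poisson intervals of 0.0643 to 0.167, 0.254 to 0.444 and 0.473 to 0.723 CPM on unscaled totals, which cover counting error only. The fitted log2 fold change was 1.68 ± 0.56 (SE) at 12 h and 2.45 ± 0.53 at 24 h. Because 1 of the 0 h libraries had no read, these values moved widely when 1 library was left out. Without 0 h replicate 1 they were 2.47 and 3.24, and without 0 h replicate 3 they were 1.11 and 1.88.

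TMEM50A (ENSG00000183726.11, chr1:25338317-25362361, plus strand) was abundant. Its level was 26.4, 27.2 and 25.6 CPM at 0 h, 48.0, 51.9 and 49.4 CPM at 12 h and 56.1, 58.4 and 54.4 CPM at 24 h. The 3 times did not overlap, and most of the difference was already there at 12 h. The log2 fold change was 0.91 ± 0.05 at 12 h and 1.09 ± 0.04 at 24 h, that is 1.89-fold and 2.13-fold, with 0.18 ± 0.04 between 12 h and 24 h.

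RHCE (ENSG00000188672.19, chr1:25362249-25430192, minus strand) was again a gene of few reads and differed from 0 h later. It had 0.532, 0.5003 and 0.360 CPM at 0 h and 0.593, 0.625 and 0.475 CPM at 12 h, which overlapped. At 24 h it had 1.17, 0.754 and 0.730 CPM, all above every earlier library, with replicate 1 well above the other two. Pooled reads were 83, 88 and 134, with intervals of 0.371 to 0.578, 0.452 to 0.695 and 0.734 to 1.04 CPM on unscaled totals. The log2 fold change was 0.28 ± 0.32 at 12 h and 0.92 ± 0.30 at 24 h. Without 24 h replicate 1 the latter was 0.67.

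How far reads of RHD and RHCE can be told apart bears on both values. For each gene the reference form that Ensembl marks as canonical was used. Of the 2665 stretches of 150 bases in that form of RHD, 16 (0.6%) also occurred letter for letter in an RHCE transcript. In the other direction 16 of 1422 (1.13%) did. How the counting treated reads with several matches was not stated, so the split between this pair remains uncertain. RHD also lies wholly within the span of RSRP1 on the opposite strand, a gene with 47.5 times as many reads. Their exons shared 47 bases, which is 1.42% of RHD exons. The 3′ ends of TMEM50A and RHCE overlapped by 113 bases, 4.64% of RHCE exons, and TMEM50A had far more reads. Strand was not stated for the counting, so reads in these overlaps cannot be assigned between the strands, and their part in the differences was not tested.

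**Figure D1:**
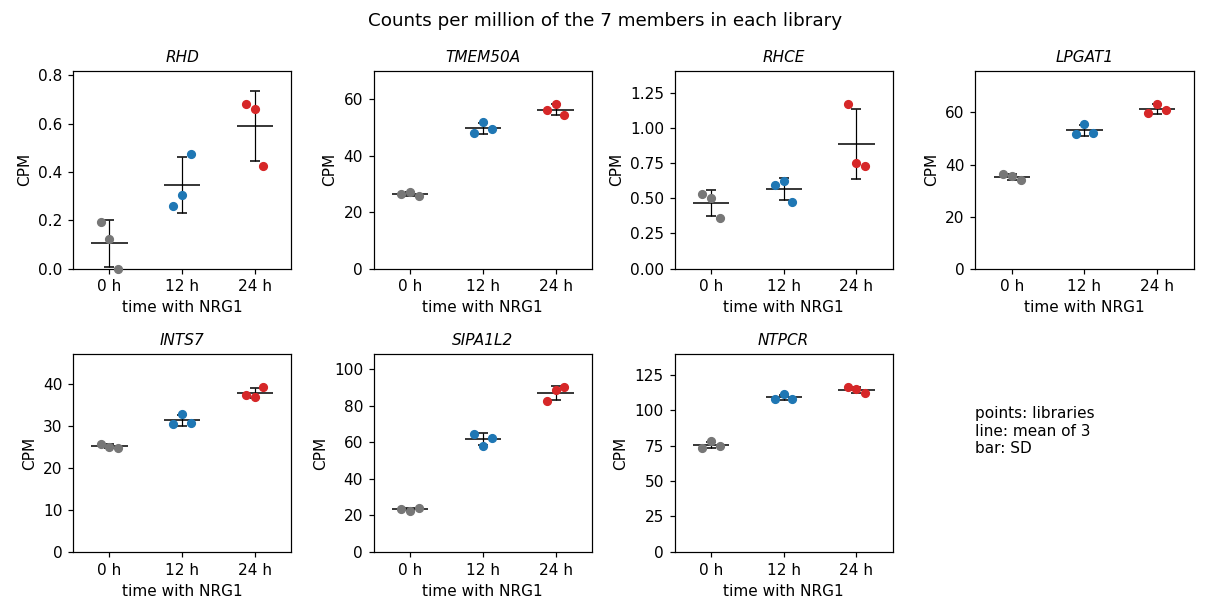
Level of each of the 7 genes in CPM (vertical axes from 0, a separate scale per gene) at 0, 12 and 24 h with NRG1 (horizontal axes). Points are libraries, lines the mean of 3 and bars the SD; RHD and RHCE stay near or below 1 CPM with points that overlap between some of the times, whereas SIPA1L2 goes from 23.4 to 87.2 CPM without overlap.

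LPGAT1 (ENSG00000123684.13, chr1:211743457-211830763, minus strand) had 36.3, 35.6 and 33.9 CPM at 0 h, 51.8, 55.6 and 52.1 CPM at 12 h and 59.7, 63.4 and 60.8 CPM at 24 h. Each time lay above the one before without overlap. The log2 fold change was 0.59 ± 0.04 at 12 h, just past the 1.5-fold threshold of 0.585, and 0.80 ± 0.04 at 24 h. The 12 h value ran from 0.559 to 0.614 with single libraries left out and was 0.581 with no scaling factor, so it fell on both sides of the threshold.

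INTS7 (ENSG00000143493.13, chr1:211940399-212035557, minus strand) followed the same order at a smaller size. It had 25.6, 25.05 and 24.8 CPM at 0 h, 30.4, 32.7 and 30.6 CPM at 12 h and 37.2, 36.9 and 39.2 CPM at 24 h. The 3 times did not overlap, and the steps from 0 to 12 h and from 12 to 24 h were of similar size, 0.31 ± 0.05 and 0.27 ± 0.05 on the log2 scale. The difference between 24 h and 0 h, 0.59 ± 0.05, lay at the threshold itself, and 12 of 17 settings of the fit put it at or above 1.5-fold. Its neighbour DTL, which starts on the other strand 191 bases away, is described with the flanking genes below.

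SIPA1L2 (ENSG00000116991.11, chr1:232397965-232630571, minus strand) had 23.8, 22.7 and 23.8 CPM at 0 h, 64.6, 58.0 and 62.3 CPM at 12 h and 82.8, 88.5 and 90.3 CPM at 24 h. The groups lay far apart, with the lowest 12 h library above the highest 0 h library and likewise for 24 h over 12 h. The log2 fold change was 1.40 ± 0.05 at 12 h and 1.90 ± 0.05 at 24 h, which is 2.63-fold and 3.73-fold. Between 12 h and 24 h it was 0.50 ± 0.04, the widest of that step among the 5 abundant members.

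NTPCR (ENSG00000135778.12, chr1:232950605-232983882, plus strand) had 73.4, 78.0 and 74.9 CPM at 0 h, 108.1, 111.4 and 108.0 CPM at 12 h and 116.4, 114.9 and 112.2 CPM at 24 h. It reached nearly its full difference by 12 h, 0.53 ± 0.04 on the log2 scale, and stood at 0.60 ± 0.04 at 24 h. Leaving out 0 h replicate 1 put the latter at 0.58, just under the threshold.

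**Figure D2:**
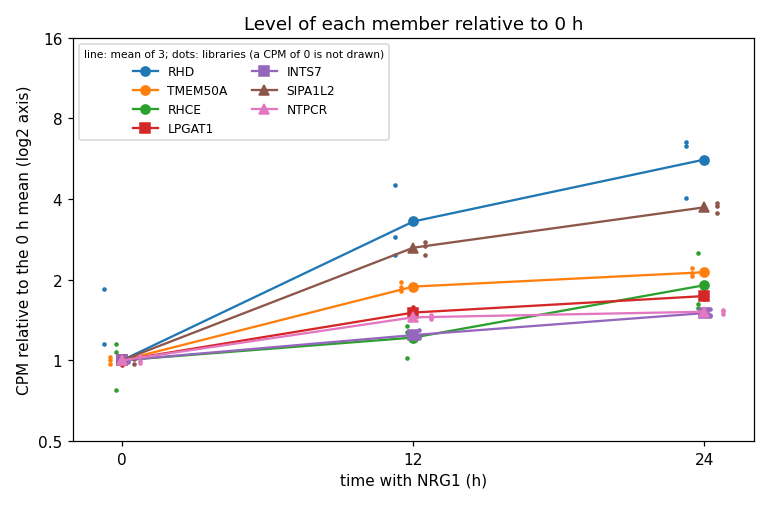
CPM relative to the mean of the 0 h libraries of the same gene (vertical axis, log2 scale) against hours with NRG1 (horizontal axis). Lines join means of 3 libraries and dots are libraries, without the 0 h library of RHD that had no read; RHD and SIPA1L2 lie highest, and RHCE is the gene whose 12 h libraries overlap its 0 h libraries.

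At 12 h a fitted fold of at least 1.5 was reached by 4 of the 7 genes, namely RHD, SIPA1L2, TMEM50A and, narrowly, LPGAT1. At 24 h it was reached by 7, and between 12 h and 24 h by RHD and RHCE. Over all tested genes the shares were 2.94%, 3.83% and 3.89%, and since the genes were picked on these contrasts nothing is read from the comparison. Libraries after NRG1 lay wholly above the 0 h libraries for 6 of 7 genes at 12 h (17.5% of all tested genes) and for 7 at 24 h (17.3%), and 24 h lay above 12 h for 6 (12.1%). The exceptions were RHCE at 12 h and RHD between 12 and 24 h. The median log2 fold change of the 7 was 0.59 and 0.92 for the 12 h and 24 h libraries against 0 h, with 0.27 for 24 h against 12 h, beside medians of -0.01, -0.01 and 0.00 over all tested genes. Ranked by the fitted log2 fold change at 24 h, RHD stood at 26, SIPA1L2 at 41, TMEM50A at 184, RHCE at 280, LPGAT1 at 394, NTPCR at 703 and INTS7 at 737 of 19250. Adjacent tested genes that both passed an adjusted p of at most 0.05 and 1.5-fold upwards in edgeR made up 13 of 19225 adjacent pairs at 12 h and 33 (0.172%) at 24 h. Pairs of the genes described here are among them because the genes were chosen for this, so nothing is read from these numbers.

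Levels were also divided by exon length, with the exons of all annotated forms of a gene merged. The orders below depend on this length, which was longest for NTPCR at 15854 bases. The lengths of the forms present in these cells were not measured. On this scale the order at 0 h was TMEM50A, NTPCR, INTS7, LPGAT1, SIPA1L2, RHCE and RHD. Mean levels were 8.77, 4.76, 4.73, 4.01, 2.74, 0.191 and 0.0316 CPM per kilobase. NTPCR and INTS7 overlapped between libraries, and the other neighbours in the order did not. At 24 h TMEM50A still led with 18.7 CPM per kilobase, but SIPA1L2 had moved from the fifth place to the second with 10.2 CPM per kilobase. NTPCR, INTS7 and LPGAT1 followed at 7.22, 7.09 and 6.97 CPM per kilobase, with overlapping libraries. RHCE and RHD came last at 0.364 and 0.178 CPM per kilobase, and their libraries did not overlap. The abundant TMEM50A thus lay between both scarce RH genes, whereas LPGAT1 and INTS7 had levels of similar size.

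Distances between the members differed as well. RHD ended 7871 bases before TMEM50A, LPGAT1 and INTS7 stood 110 kb apart, and SIPA1L2 and NTPCR 320 kb apart. The table held 1, 1 and 6 rows in these gaps, with at most 19, 18 and 30 reads in all 9 libraries together. None of these rows had enough reads to be fitted, among them MAP10, a microtubule-associated protein gene with 5 reads. The members of each neighbourhood were therefore next to each other among the fitted genes.

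The 5 nearest fitted genes on each side of the 3 neighbourhoods, 30 genes in all, were tested with edgeR. Their places were set by where the runs of selected genes ended, so the innermost of them are in part chosen by not having been selected. With an adjusted p of at most 0.05 and at least 1.5-fold, 1 of the 30 was higher at 12 h and 2 at 24 h, and none was lower (1 and 3 were at an unadjusted p under 0.05). DESeq2 called the same genes. Over all tested genes 0.992% and 1.53% were higher by this rule and 1.38% and 1.78% lower. Between 12 h and 24 h 0 of the 30 passed by edgeR and by DESeq2 (0.249% of all tested genes were higher and 0.203% lower by edgeR), and 4 had an unadjusted p under 0.05. An adjusted p of at most 0.05 alone was reached by 1 of them, which was lower (3.03% higher and 3.05% lower over all tested genes). By the adjusted p alone 10 were higher at 12 h, and 10 were higher and 1 lower at 24 h, beside 10.6% higher and 8.16% lower at 12 h and 11.6% higher and 9.48% lower at 24 h over all tested genes. The median log2 fold change of the 30 was 0.15 and 0.07.

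The flanking gene that passed both thresholds at both times was SLC30A1, a zinc exporter of the plasma membrane that stands on the LPGAT1 side of its neighbourhood. It had 21.4, 16.4 and 16.02 CPM at 0 h, 28.6, 30.6 and 33.1 CPM at 12 h and 35.7, 32.4 and 30.01 CPM at 24 h. Both later times lay above 0 h and overlapped each other. Its log2 fold change was 0.78 ± 0.12 at 12 h (adjusted p = 0.00276, edgeR) and 0.87 ± 0.12 at 24 h (adjusted p = 0.00124, edgeR), and it passed under each of the 16 other settings of the fit with the same fold threshold. NEK2, a mitotic kinase between SLC30A1 and LPGAT1 in gene order, went the other way late. It had 26.8 CPM at 0 h, 29.7 CPM at 12 h and 23.3 CPM at 24 h in the mean, with a log2 difference of -0.35 ± 0.05 between 12 and 24 h (adjusted p = 2.5e-05, edgeR).

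On the other side of INTS7 is DTL, a substrate receptor of a ubiquitin ligase that acts in DNA replication. INTS7 and DTL are read in opposite directions from starts close together, and their annotated ends overlapped by 5 bases. DTL had 10.7, 10.7 and 11.7 CPM at 0 h, 15.0, 12.9 and 14.0 CPM at 12 h and 14.1, 13.8 and 13.6 CPM at 24 h. It rose by 0.34 ± 0.07 on the log2 scale at 12 h (adjusted p = 0.000513, edgeR) and by 0.33 ± 0.07 at 24 h (adjusted p = 0.000678, edgeR), below 1.5-fold. INTS7 was thus at 0.31 and DTL at 0.34 at 12 h, while at 24 h INTS7 stood at 0.59 and DTL at 0.33. PPP2R5A, a regulatory subunit of a protein phosphatase, did not pass at either time, with 0.09 and 0.08 on the log2 scale.

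Beside NTPCR the nearest fitted gene was PCNX2, of the pecanex family of membrane proteins, which overlaps the end of NTPCR on the opposite strand by 448 bases (2.83% of NTPCR exons). PCNX2 had 32.7, 32.5 and 33.0 CPM at 0 h, 39.6, 36.9 and 37.2 CPM at 12 h and 41.6, 40.8 and 39.7 CPM at 24 h. The rise was 0.21 ± 0.05 at 12 h (adjusted p = 0.000655, edgeR) and 0.31 ± 0.05 at 24 h (adjusted p = 1.27e-06, edgeR), small but without overlap with 0 h. KCNK1, a potassium channel gene further out, rose by 0.24 and 0.19 (adjusted p = 0.0015 and 0.00914, edgeR). On the SIPA1L2 side, EXOC8, SPRTN, EGLN1 and TSNAX did not pass at either time, with log2 fold changes between -0.10 and 0.06. The nearest of them, TSNAX, ends at 231566524 and the span of SIPA1L2 begins at 232397965, a wider gap than between SIPA1L2 and NTPCR. EGLN1 encodes the oxygen-sensing prolyl hydroxylase of the HIF pathway and was at 0.00 and 0.01.

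Around the RH genes 5 of the 10 flanking genes had an adjusted p of at most 0.05 upwards at each time, beside 10.6% and 11.6% of all tested genes. With it 0 reached 1.5-fold at 12 h and 1 at 24 h. RSRP1, an arginine- and serine-rich protein gene whose span holds RHD, had 13.3, 13.8 and 12.9 CPM at 0 h, 14.9, 18.4 and 14.6 CPM at 12 h and 20.3, 16.8 and 18.9 CPM at 24 h. It rose by 0.26 ± 0.08 at 12 h (adjusted p = 0.0197, edgeR) and by 0.49 ± 0.08 at 24 h (adjusted p = 2.28e-05, edgeR). Without 12 h replicate 2 or 0 h replicate 3 the former no longer passed (adjusted p = 0.247 and 0.0783, edgeR). MACO1, a membrane protein gene read in the opposite direction, starts 665 bases from the annotated 5′ end of RHCE. It rose by 0.16 at 12 h (adjusted p = 0.00409, edgeR) and was at 0.07 at 24 h (adjusted p = 0.296, edgeR). SELENON, a selenoprotein of the endoplasmic reticulum, rose by 0.22 and 0.30 (adjusted p = 3.6e-05 and 1.7e-07, edgeR). The gene that reached 1.5-fold was RP3-465N24.5, annotated as an unprocessed pseudogene. It was the nearest fitted gene before RHD and lay within the span of RSRP1. RHD was itself chosen for its rise, so nothing is read from the 2 genes being adjacent. RP3-465N24.5 had 0.520 CPM at 0 h and 1.04 CPM at 24 h. Its log2 fold change of 0.99 ± 0.28 (adjusted p = 0.01, edgeR) no longer passed without 0 h replicate 3 or 24 h replicate 1 (adjusted p = 0.0795 and 0.0755, edgeR).

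**Figure D3:**
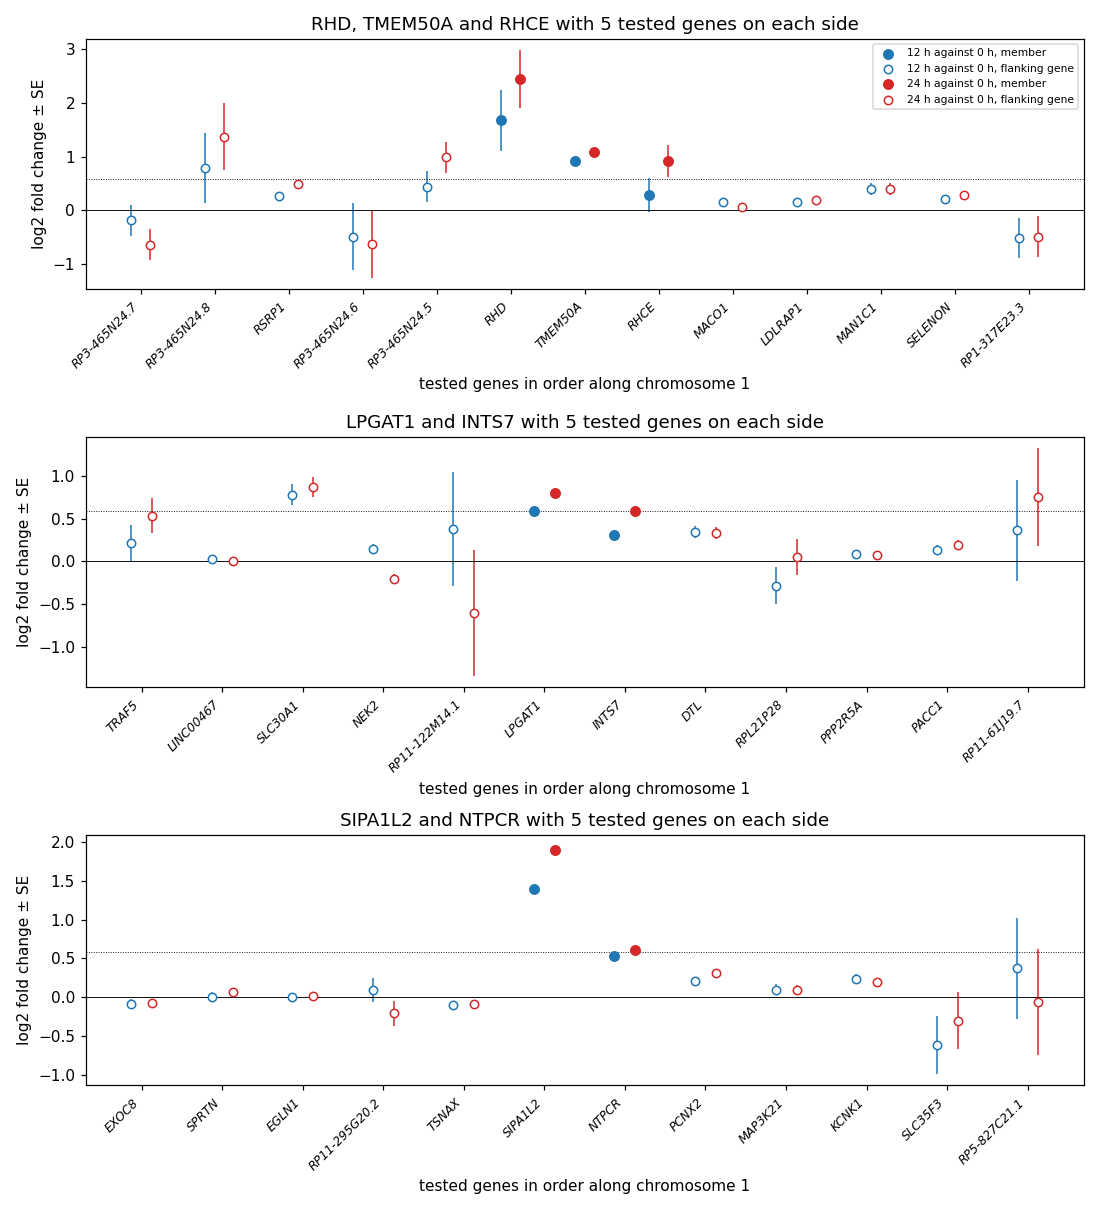
Fitted log2 fold change ± SE (vertical axes) of the members (filled) and the 5 nearest fitted genes on each side (open) in their order along chromosome 1 (horizontal axes), at 12 h (blue) and 24 h (red) against 0 h. The dotted line marks 1.5-fold; of the flanking genes above it SLC30A1 passed at both times and RP3-465N24.5 at 24 h, while RP3-465N24.8 and RP11-61J19.7 did not pass.

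Relatives and partners of the members were taken from 5 lists of genes by function, with the members left out. Of 72 genes 62 were fitted. By edgeR 2 of the 62 rose past both thresholds at 12 h and 2 at 24 h, and none was lower (9 and 13 were at an unadjusted p under 0.05), beside 0.992% and 1.53% higher and 1.38% and 1.78% lower over all tested genes. Between 12 and 24 h 0 passed by edgeR and by DESeq2, with 3 at an adjusted p of at most 0.05 (3.03% higher and 3.05% lower over all tested genes) and 16 at an unadjusted p under 0.05. The genes that passed were the same at both times and with DESeq2, and both encode exchange factors that switch RAP on, opposite in action to SIPA1L2. RAPGEF5 had 11.02, 11.3 and 11.1 CPM at 0 h, 17.1, 18.0 and 16.4 CPM at 12 h and 17.6, 17.2 and 17.9 CPM at 24 h. It rose by 0.62 ± 0.06 and 0.66 ± 0.06 on the log2 scale (adjusted p = 2.52e-09 and 4.4e-10, edgeR), with the later times overlapping each other and far above 0 h. RAPGEF4, a cAMP-activated exchange factor, went from 0.480 to 0.828 and 1.21 CPM. Its log2 fold change was 1.32 ± 0.27 at 24 h (adjusted p = 0.000288, edgeR). At 12 h it was 0.78 ± 0.28 (adjusted p = 0.0446, edgeR), with adjusted p from 0.0289 to 0.188 over the alternatives, and it no longer passed when any 12 h replicate, 0 h replicate 2 or 3, or 24 h replicate 1 or 2 was left out.

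The closest relatives of SIPA1L2 did not pass against 0 h. SIPA1, the founding member of the family, was at 0.01 at both times on the log2 scale, and SIPA1L1 at -0.04 and 0.03. SIPA1L3 was at -0.10 and 0.12, and between 12 h and 24 h it differed by 0.23 ± 0.05 (adjusted p = 0.00206, edgeR). At 0 h SIPA1, SIPA1L3 and SIPA1L1 had 6.21, 4.62 and 3.91 CPM per kilobase of merged exons and lay above SIPA1L2 at 2.74. At 24 h SIPA1L2, at 10.2 CPM per kilobase, lay above them at 6.26, 5.04 and 3.996. The whole list held 16 genes, which were regulators of RAP and the RAP GTPases themselves. Of them 5 were higher by the adjusted p alone at 12 h, and 5 higher and 1 lower at 24 h. RAP2C, a RAP GTPase, was among the higher at both times, and the 1 lower was RAP1A. Medians of the list were 0.01 and 0.02 on the log2 scale. Over all tested genes 10.6% were higher at 12 h, and 11.6% higher and 9.48% lower at 24 h.

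TMEM50B, the paralog of TMEM50A, moved the opposite way. It had 48.4, 48.4 and 49.1 CPM at 0 h, 36.9, 39.0 and 37.4 CPM at 12 h and 39.6, 35.9 and 39.2 CPM at 24 h. It was lower by 0.36 ± 0.04 and 0.35 ± 0.04 on the log2 scale (adjusted p = 8.66e-08 and 1.69e-07, edgeR), and no later library reached the 0 h range.

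Of the partners and relatives of the Rh proteins 3 of 10 listed genes could be fitted, and 0 passed both thresholds by edgeR (1 at an unadjusted p under 0.05 at each time). RHAG, the partner of both Rh proteins in the red cell membrane, had 4 reads in all 9 libraries and RHCG, an ammonia transporter of epithelia, had 1. RHBG, another epithelial ammonia transporter, had 0.465, 0.376 and 0.296 CPM in the group means and did not pass (adjusted p = 0.642 at 12 h and 0.258 at 24 h, edgeR). CD47, a surface protein that associates with the Rh complex, was lower by 0.16 ± 0.05 at 24 h (adjusted p = 0.0363, edgeR).

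The Integrator list held 17 genes beside INTS7, namely subunits, the paralog INTS6L, and NABP1, NABP2 and INIP of the single-stranded DNA-binding SOSS complex, which shares INTS3. All 17 were fitted, and 0 passed both thresholds by edgeR (6 and 9 had an unadjusted p under 0.05 at 12 h and 24 h). By the adjusted p alone 3 were higher at 12 h and 7 at 24 h, with medians of 0.05 at both times. Over all tested genes 10.6% were higher and 8.16% lower at 12 h, and 11.6% higher and 9.48% lower at 24 h, which also stands beside the other counts of this kind below. INTS13 rose by 0.30 ± 0.04 at 12 h and 0.24 ± 0.04 at 24 h (adjusted p = 7.54e-07 and 3.93e-05, edgeR), and the highest of the 17 at 24 h was NABP1 at 0.28, below the 0.59 of INTS7. The acyltransferase list held 18 genes for enzymes of lysophospholipids and, as with GPAM and GPAT4, of glycerol-3-phosphate. Of these 15 were fitted, and 0 passed both thresholds by edgeR (6 and 9 at an unadjusted p under 0.05). By the adjusted p alone 1 was higher and 3 were lower at 12 h, and 2 were higher and 5 lower at 24 h. LPCAT1, a lysophosphatidylcholine acyltransferase, was lower by 0.39 and 0.36 on the log2 scale (adjusted p = 7.46e-11 and 5.36e-10, edgeR). MBOAT2, a membrane-bound acyltransferase, was lower by 0.30 and 0.43 (adjusted p = 1.18e-06 and 6.19e-10, edgeR). LCLAT1, a cardiolipin acyltransferase related to LPGAT1, had 34.2 to 35.4 CPM in every library and was at -0.01 and -0.02. Of 11 nucleotide triphosphatases and related nucleotide hydrolases 0 passed both thresholds by edgeR (4 and 7 at an unadjusted p under 0.05). By the adjusted p alone 3 were higher at 12 h, and 4 higher and 2 lower at 24 h.

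**Figure D4:**
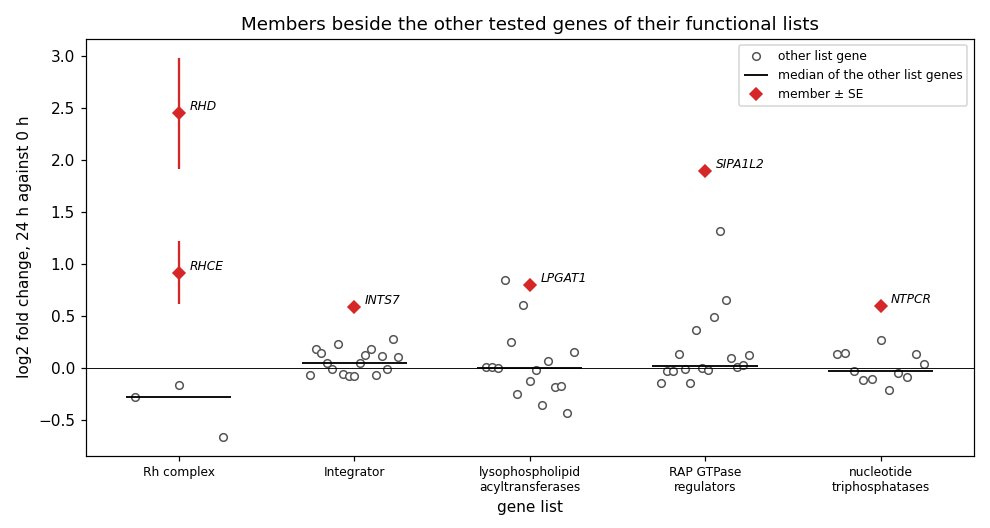
Fitted log2 fold change at 24 h against 0 h (vertical axis) of the members (red diamonds, ± SE) and of the other fitted genes of 5 functional lists (open circles, line at their median). RHD, RHCE, INTS7, SIPA1L2 and NTPCR lie above every other gene of their list, whereas LPGAT1 at 0.80 lies next to AGPAT4 at 0.85, which did not pass (adjusted p = 0.0632, edgeR).

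Across the 9 libraries, whose 3 groups set most of the spread, the 5 abundant members had Pearson correlations of log2 CPM with each other between 0.911 for INTS7 with NTPCR and 0.996 for TMEM50A with NTPCR. For RHD with the others they ran from 0.786 to 0.857, and for RHCE from 0.694 to 0.812. Among 11399 or 11400 fitted genes with an average of at least 2 on the log2 CPM scale, those most like SIPA1L2 were POLR3G (r = 0.9973), a subunit of RNA polymerase III, ASPH (0.9966), a hydroxylase of the endoplasmic reticulum, and ABCC4 (0.9962), an exporter of cyclic nucleotides and drugs. For LPGAT1 they were NUDT4 (0.9947), TFRC (0.9936), the transferrin receptor, and PLAAT3 (0.9928), a phospholipase and acyltransferase. For RHD they were SLC22A18 (0.9617), PPP2R2C (0.9571) and ARSB (0.9535), all lower values than for the abundant genes.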

How the data were processed

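RNA from LNCaP cells at 0, 12 and 24 h was sequenced as paired-end mRNA libraries. Per the study's methods, the authors trimmed reads with Cutadapt, aligned them with STAR to GRCh38.p13 with GENCODE 38 and counted them per gene with featureCounts. They deposited whole-number counts, 1 column per library, without normalization. The strand setting and the handling of multi-mapping reads are not given in the sources used here. The methods state that 1 LNCaP replicate at time zero was excluded without naming the treatment. Captions vary the replicate number for ASPN, the other ligand studied, but keep it at 3 for NRG1, and all 3 of the 0 h libraries were used here. The table also held 14 empty columns that were not used.

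Genes were filtered with filterByExpr (minimum count 10, which at these depths is 0.185 CPM), scaled with TMM and fitted with the robust quasi-likelihood method of edgeR 4.0.16 in R 4.3.3 over all 9 libraries without covariates. P-values were adjusted by Benjamini and Hochberg over all 19250 tested genes, and a gene passed with an adjusted p of at most 0.05 and at least 1.5-fold, as in the study's own analysis. CPM are on TMM-scaled library sizes. Standard errors come from the F statistic. The code was tested on simulated data. The members and all gene lists were chosen with earlier results of these data known. Named genes are the members, genes overlapping or between them, the 5 nearest fitted genes on each side, list genes past both thresholds, relatives of the members and, for RHD, LPGAT1 and SIPA1L2, the 3 genes with the highest Pearson r. AGPAT4, CD47, COL3A1, ENTPD5, GATA1, GPAM, GPAT4, INTS1, INTS13, LPCAT1, MBOAT2, NABP1, RAP1A and RAP2C were named after their values were seen or as listed markers. Results for single luminal markers are not reported here. Coordinates are those of the table, which for the members equal GENCODE 44. Exon lengths come from GENCODE 44, with the exons of all forms of a gene merged. Promoter windows come from RefSeq on GRCh38.p14, where all 7 members were found. The window nearest the 5′ end of the gene was taken, but for RHD and RHCE the most alike pair of windows. Alternatives were other scalings, filters, DESeq2 1.42.0, the 6 libraries of a comparison alone, a replicate block, other fold thresholds and each replicate left out.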

Additional observations from a re-analysis of the deposited data

Results flagged for a closer look

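Of the 30 flanking and 62 listed genes, 4 differed between 24 h and 12 h at an adjusted p of at most 0.05 by edgeR, beside 3.03% higher and 3.05% lower over all tested genes. NEK2, which flanks LPGAT1, was at 0.15 at 12 h and -0.20 at 24 h on the log2 scale, a difference of -0.35 (adjusted p = 2.5e-05). SIPA1L3 differed by 0.23 (adjusted p = 0.00206). INTS1, the largest Integrator subunit, was at 0.05 and 0.18 and differed by 0.13 (adjusted p = 0.00691), which no longer passed without 12 h replicate 2 (adjusted p = 0.074). ENTPD5, a nucleoside diphosphatase of the endoplasmic reticulum, was at 0.05 and -0.12 and differed by -0.16 (adjusted p = 0.00781), which no longer passed without 12 h replicate 1 (adjusted p = 0.0746). None of these differences reached 1.5-fold.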

How the results depend on the processing

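The log2 fold changes of the members kept their sign under every setting tried, and RHD could not be fitted under the filter of at least 10 counts in every library. That filter lowered the median of the remaining 6 members at 24 h from 0.92 to 0.85, and leaving out single libraries gave 0.77 to 1.04. The number of listed genes that passed at 12 h went from 2 to 1, RAPGEF5, with no scaling factor, with all genes of at least 1 count, with only the 6 libraries compared and with the replicate block, and from 1 to 2 with single libraries left out. Flanking genes that passed at 24 h numbered 1 to 4 with single libraries left out, the 4 without 0 h replicate 2. With no fold threshold 3605, 4065 and 1171 genes passed at 12 h, at 24 h and between them, of which 10, 11 and 1 were flanking genes and 15, 27 and 3 listed genes. With a fold threshold of 2, 179, 266 and 34 genes passed, 0 flanking genes at either time, and 0 and 1 listed genes. Between 12 and 24 h 87 genes passed, and 55 to 101 with single libraries left out, the 55 without 12 h replicate 2. Same-numbered libraries correlated at -0.037 to 0.029 in their deviations from the group means, so the numbers did not pair the libraries, and the replicate block changed no other call among the flanking genes and listed genes named above. Few reads limit RHD, RHCE and RAPGEF4: 3 counts are 0.0492 to 0.0638 CPM in a library.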
